A study of Homo sapiens with 9 samples.

Results

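Proliferation genes were followed in orthotopic thyroid tumors of mice as 3 sets named for phases of the cell cycle. The sets held 20 genes listed under S phase, 20 under G2/M and 5 under G1. The S phase list also includes the licensing genes Cdc6 and Cdt1 and the E cyclins, which start S phase. All 45 were among the 17369 genes of the expression table, and all 45 passed the filter on low values (at least 1 FPKM in at least 3 tumors), as did 10263 genes in all. TBP3743 is a murine anaplastic thyroid cancer line from a B6129SF1 mouse that carried an activating Braf mutation and a Trp53 deletion, both restricted to the thyroid. Adapted cells were TBP3743 cells recovered from tumors after 3 rounds of passage in C57BL/6 mice. Group names are those of the labels. SFOG tumors grew from original cells in B6129SF1 hosts, SFSC tumors from adapted cells in B6129SF1 hosts, and B6SC tumors from adapted cells in C57BL/6 hosts. Each group had 3 tumors, labelled as biological replicates, and the hosts were female, were injected in the thyroid at 6 weeks of age and were sampled 14 days later. All groups thus share the tumor line with its Braf and Trp53 alleles, and no normal thyroid was compared. The sample records give a human organism, but the gene symbols and the mm10 build are of mouse.

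The cell cycle is driven by cyclins that activate cyclin-dependent kinases in turn. D cyclins with Cdk4 or Cdk6 act in G1 and relieve the block that Rb proteins place on E2F factors, which then switch on the replication genes of S phase. Later genes of G2 and mitosis, among them cyclins A and B, Cdk1 and the spindle machinery, are switched on by B-Myb and FoxM1. In a growing tumor, transcripts of S phase and G2/M therefore tend to follow the share of dividing cells, whereas D cyclins respond more to growth factor signals such as those through Braf.

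Expression is given as FPKM, fragments per length of transcript and per depth of the tumor, which the authors scaled over the 9 tumors together. The median of all genes tested lay within 0.03 of 0 on the log2 scale in every tumor, relative to the mean of each gene. Depth, read approximately from the smallest steps between low values, was 0.96 to 1.35 times that of SFOG replicate 1. Krt8 at 153 to 615 FPKM, Krt18 at 110 to 390 FPKM and the thyroid factor Nkx2-1 at 23.5 to 44.5 FPKM were present in every tumor. Tshr, Slc5a5 and Foxe1, markers of differentiated thyroid cells, were at most 0.25 FPKM, and the epithelial marker Epcam was at most 2.5 FPKM. The samples were whole tumors, so fewer cells of a type and less RNA per cell cannot be told apart.

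The S phase and G2/M levels shared their lowest and their highest tumor but not the order of the tumors between, and the G1 level shared neither. The level of a phase was taken as the mean of log2(FPKM + 1) over its members. The S phase level was 5.04, 4.40 and 4.75 in SFOG replicates 1 to 3, 3.75, 4.78 and 4.54 in SFSC replicates 1 to 3, and 4.84, 4.67 and 4.73 in B6SC replicates 1 to 3. The G2/M level was 5.82, 5.40 and 5.10 in the SFOG tumors, 4.42, 5.63 and 5.34 in the SFSC tumors, and 5.39, 5.24 and 5.19 in the B6SC tumors. SFSC replicate 1 was the lowest of the 9 tumors for both phases, and SFOG replicate 1 the highest. SFOG replicate 2, in contrast, was the second lowest for S phase and the third highest for G2/M. The G1 level was 5.61, 5.21 and 5.66 in the SFOG tumors, 5.63, 5.57 and 5.44 in the SFSC tumors, and 5.71, 5.67 and 5.85 in the B6SC tumors. Thus the tumor with the least S phase and G2/M transcript had the second highest G1 level outside the B6SC group.

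**Figure D1:**
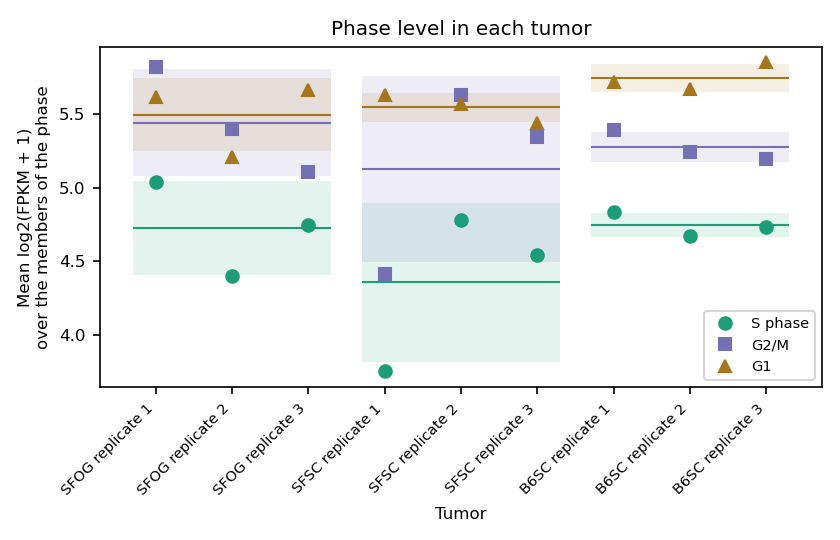
Phase level, the mean log2(FPKM + 1) over 20 S phase, 20 G2/M or 5 G1 members, in each of the 9 tumors, with a line at each group mean and a band of 1 SD (n = 3). In SFSC replicate 1 the S phase level (3.75) and the G2/M level (4.42) lie below those of every other tumor, while the G1 level (5.63) does not.

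In SFSC replicate 1 all 20 S phase genes and all 20 G2/M genes had their lowest value of the 9 tumors, against 14.1% of all genes tested. Of the G1 genes only Cdk4 did. Relative to the mean of the other SFSC tumors, the value in this tumor was a median of 50.7% for S phase genes (36.9% to 80.7%), 46.7% for G2/M genes (39.4% to 51.7%) and 110% for G1 genes (86.3% to 140.1%). Over all genes tested the median was equal to that mean. Rrm2, the regulated subunit of ribonucleotide reductase, was the most reduced member and Cdt1, a licensing factor degraded in S phase, the least reduced of S phase and G2/M. SFOG replicate 1 held the highest value for 14 of 20 S phase genes and 18 of 20 G2/M genes, against 17.2% of all genes tested.

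Among markers of other cells, the T cell and pan-leukocyte sums of SFSC replicate 1 lay below those of the other SFSC tumors. Its macrophage, fibroblast, endothelial and skeletal muscle sums lay between those of the other SFSC tumors. The 7 T cell genes with values, of 8 listed, summed to 7.30 FPKM there against 29.2 and 27.9 FPKM in SFSC replicates 2 and 3, 3.79 to 6.02 FPKM in the SFOG group and 20.0 to 29.6 FPKM in the B6SC group. The 6 pan-leukocyte genes summed to 363 FPKM there, against 471 and 455 FPKM in the other SFSC tumors, 237 to 309 FPKM in the SFOG group and 291 to 507 FPKM in the B6SC group. The 14 skeletal muscle genes summed to 802 FPKM there, 36750 FPKM in SFSC replicate 3 and 6156 FPKM in B6SC replicate 1, and to between 80.1 and 354 FPKM in the others. No list was at 0 in a tumor, and the part of these cells in the phase levels was not tested.

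**Figure D2:**
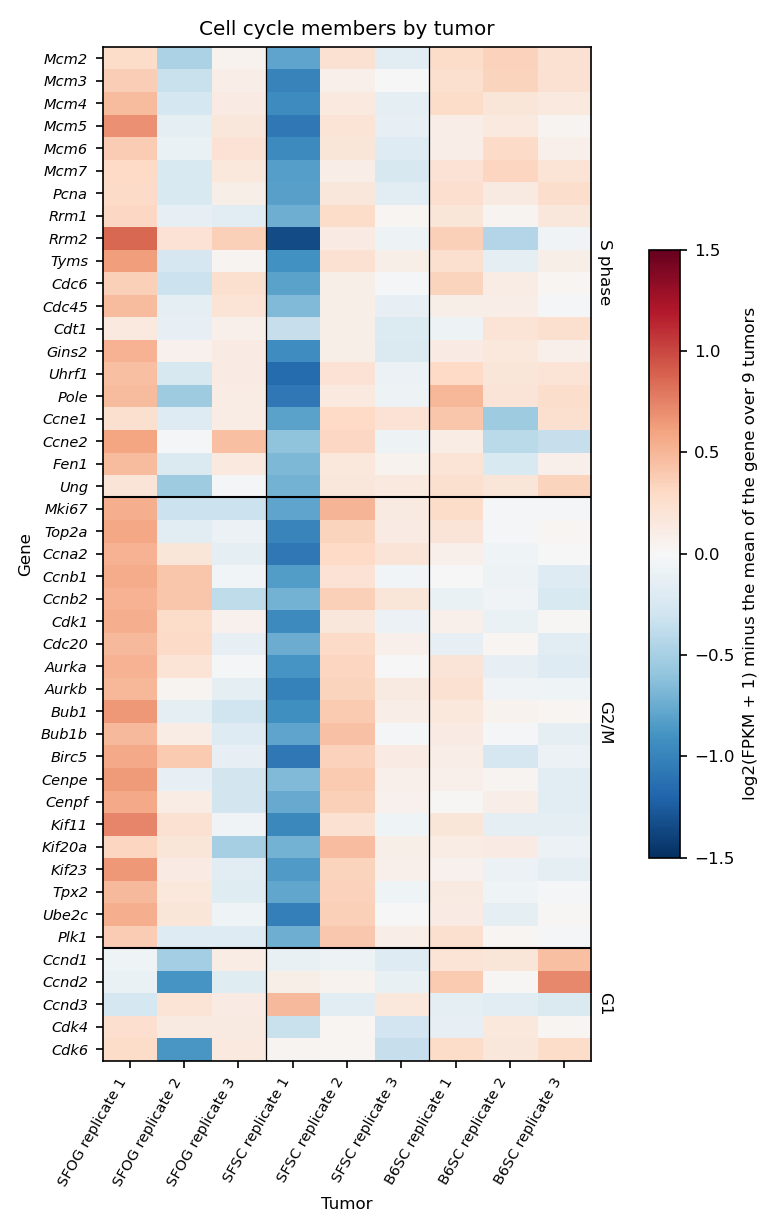
Heat map of 45 members (rows, by phase) in 9 tumors (columns, by group), coloured by log2(FPKM + 1) minus the mean of the gene over the tumors. The column of SFSC replicate 1 is below the mean for all 20 S phase and all 20 G2/M genes, and the G1 rows have a different order.

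The replicates spread unequally. The median SD of a member on the log2 scale was 0.34, 0.53 and 0.08 for S phase genes in the SFOG, SFSC and B6SC groups (n = 3 each), and 0.35, 0.62 and 0.12 for G2/M genes. Over all genes tested it was 0.17, 0.18 and 0.13. S phase and G2/M genes therefore varied more than other genes between tumors of the B6129SF1 hosts and no more than other genes between B6SC tumors. Without SFSC replicate 1 the SFSC medians were 0.19 for S phase and 0.21 for G2/M, and 0.13 over all genes tested.

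Among the genes that load and open the replication helicase, the 6 subunits of MCM2-7 kept close proportions. Their summed FPKM was 314 ± 68.7 in the SFOG group, 241 ± 86.6 in the SFSC group and 332 ± 16.3 in the B6SC group (SD, n = 3). Mcm6 made up 26.2% to 30.6% of the sum in every tumor. Mcm2 was the subunit whose share separated the cells of origin, at 10.7% to 11.8% in the SFOG tumors and 12.7% to 13.9% in the 6 adapted tumors. Of the licensing and firing genes around them, Cdc6, the loader of the helicase, was at 2.26 to 6.33 FPKM and Cdt1 at 18.8 to 28.6 FPKM. Cdc45, a cofactor of the active helicase, ranged from 8.89 to 20.7 FPKM. Gins2, a subunit of the GINS complex of the same helicase, was at 37.3, 26.9 and 28.0 FPKM in the SFOG tumors and at 13.0, 27.5 and 22.1 FPKM in the SFSC tumors, where the highest overlapped with the SFOG range. Its difference had an adjusted p of 0.161 from limma (log2 fold change -0.58, SE 0.24).

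Of the genes for nucleotide supply, Rrm2 had the widest range of all S phase members. It was at 63.5, 40.3 and 44.3 FPKM in the SFOG tumors, at 13.0, 37.8 and 32.6 FPKM in the SFSC tumors and at 44.5, 25.2 and 33.1 FPKM in the B6SC tumors. All SFSC tumors lay below all SFOG tumors, and B6SC overlapped with both. The log2 fold change between SFSC and SFOG was -0.91 (95% interval -1.77 to -0.05) with an adjusted p of 0.167 from limma, and it was -0.45 without SFSC replicate 1. Rrm1, the partner subunit, ranged from 34.2 to 71.7 FPKM, and Tyms, which makes thymidylate, from 5.61 to 18.1 FPKM.

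Of the polymerase, clamp and repair genes, Pcna, the sliding clamp, was the most abundant S phase member at 80.9 to 175 FPKM, and Fen1, which trims Okazaki fragments, was at 13.8 to 31.7 FPKM. Pole, the catalytic subunit of the leading strand polymerase, was at 13.5, 6.21 and 10.3 FPKM in the SFOG tumors, 3.96, 10.5 and 8.87 FPKM in the SFSC tumors, and 13.8, 10.9 and 11.5 FPKM in the B6SC tumors. The B6SC tumors were all above the SFSC tumors, but the difference did not pass (log2 fold change 0.65, 95% interval -0.11 to 1.42, adjusted p = 0.821 from limma) and was 0.29 without SFSC replicate 1. Ung, which removes uracil from DNA, was at 2.95 to 6.27 FPKM in SFSC and 6.33 to 7.17 FPKM in B6SC. Uhrf1, which carries DNA methylation over to the new strand, ranged from 19.2 to 60.5 FPKM.

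The E cyclins, which start S phase with Cdk2, were weakly expressed. Ccne1 was at 2.93 to 8.21 FPKM over the 9 tumors. Ccne2 was at 7.55, 4.54 and 6.75 FPKM in the SFOG tumors, 2.71, 6.01 and 4.35 FPKM in the SFSC tumors, and 5.10, 3.27 and 3.46 FPKM in the B6SC tumors. The share of Ccne1 in the sum of both E cyclins was 50.0% ± 2.28 in the SFOG group, 56.3% ± 4.95 in the SFSC group and 60.8% ± 6.95 in the B6SC group (SD, n = 3). The share was higher in all B6SC tumors than in all SFOG tumors, by less than 1 percentage point between the nearest ones. Ccne2 itself differed between B6SC and SFOG by -0.55 on the log2 scale (95% interval -1.15 to 0.04, adjusted p = 0.238 from limma). With a weight estimated for each tumor that adjusted p was 0.0295, but 2466 of 10263 genes tested were then under 0.05, in place of 693.

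The G2/M genes ranged more alike than the S phase genes. The ratio of the highest to the lowest of the 9 tumors ran from 2.27 to 3.45 over G2/M members and from 1.52 to 4.90 over S phase members, and the median over all genes tested was 1.67. Mki67, which encodes the Ki-67 antigen on mitotic chromosomes, was at 76.2, 41.5 and 41.4 FPKM in the SFOG tumors. It was at 29.6, 74.5 and 57.1 FPKM in the SFSC tumors and at 63.2, 51.1 and 51.4 FPKM in the B6SC tumors. The 3 groups overlapped throughout, and the SFSC group held both the lowest and the second highest value. Top2a, which untangles replicated DNA, ranged from 39.6 to 120.2 FPKM.

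Among the cyclins and kinase that drive mitotic entry, Ccna2 was at 36.6 to 112 FPKM, Ccnb1 at 24.0 to 64.3 FPKM, Ccnb2 at 28.5 to 68.3 FPKM and Cdk1 at 19.8 to 58.0 FPKM. Ccnb2 made up 54.3% to 56.1% of the B cyclin sum in the SFSC tumors, above the 46.1% to 52.1% of the SFOG tumors and the 50.4% to 52.5% of the B6SC tumors. SFSC replicate 1, at 54.3%, thus had a B cyclin proportion like that of the other SFSC tumors although both genes were lowest there. The mitotic kinases Aurka, Aurkb and Plk1 ranged from 11.1 to 30.9 FPKM, 12.6 to 37.8 FPKM and 18.0 to 40.8 FPKM. Birc5, the survivin subunit of the passenger complex, ranged from 36.1 to 115 FPKM, and Tpx2, which activates Aurora A on the spindle, from 24.7 to 60.9 FPKM.

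For the spindle checkpoint, Bub1 ranged from 7.31 to 23.6 FPKM and Bub1b from 18.8 to 46.9 FPKM. Cdc20 and Ube2c, a coactivator and a ubiquitin-conjugating enzyme of the anaphase-promoting complex, ranged from 29.2 to 69.4 FPKM and from 55.2 to 167 FPKM. The kinesins Cenpe, Kif11, Kif20a and Kif23 and the kinetochore protein Cenpf had their lowest values, between 6.94 and 32.7 FPKM, in SFSC replicate 1. No G2/M member had groups that did not overlap in any of the 3 comparisons. Of all genes tested, 29.6% did not overlap in SFSC against SFOG, 32.8% in B6SC against SFOG and 11.7% in B6SC against SFSC.

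Within a tumor, the balance between the later and the earlier phase could be read without regard to how much of both was present. The G2/M level minus the S phase level was 0.79, 1.00 and 0.36 on the log2 scale in the SFOG tumors, 0.66, 0.84 and 0.80 in the SFSC tumors, and 0.55, 0.57 and 0.46 in the B6SC tumors. The B6SC tumors were thus all below the SFSC tumors, with group means of 0.53 ± 0.06 and 0.77 ± 0.09 (SD, n = 3), and the SFOG tumors spanned both groups and beyond. SFSC replicate 1, the lowest in both phases, lay near the middle of the 9 tumors in this balance. The difference between B6SC and SFSC was -0.24, and leaving out each tumor in turn gave -0.30 to -0.21. No p was computed for a score over the members, and in 3 against 3 tumors an exact two-sided test cannot go below 0.1.

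**Figure D3:**
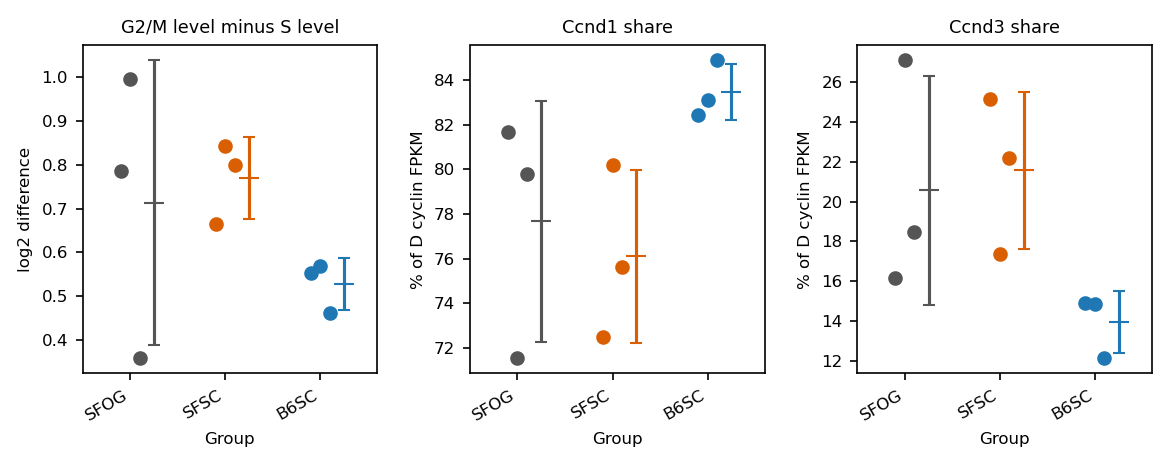
Values per tumor by group (points), with the mean and SD beside them (n = 3), for the G2/M level minus the S phase level and for the shares of Ccnd1 and Ccnd3 in the summed FPKM of the 3 D cyclins. The vertical axes do not start at 0. The B6SC tumors lie below all SFSC tumors in the first panel (at most 0.57 against at least 0.66), above all 6 other tumors in the second and below all 6 in the third.

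The D cyclins differed in composition. Ccnd1, the main D cyclin, was at 215, 157 and 242 FPKM in the SFOG tumors, 209, 212 and 196 FPKM in the SFSC tumors, and 258, 256 and 308 FPKM in the B6SC tumors. All B6SC tumors were above the other 6. Its log2 fold change was 0.44 against SFOG (SE 0.16, adjusted p = 0.137 from limma) and 0.41 against SFSC (SE 0.16, adjusted p = 0.777 from limma), so neither difference passed. Ccnd3, in contrast, was at 42.6 to 59.6 FPKM in SFOG, 46.0 to 72.4 FPKM in SFSC and 44.1 to 46.6 FPKM in B6SC, with its highest value in SFSC replicate 1. Its log2 fold change between B6SC and SFSC was -0.34 (95% interval -0.73 to 0.06, adjusted p = 0.821 from limma).

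As a share of the 3 D cyclins, Ccnd1 was 82.4% to 84.9% in the B6SC tumors and 71.6% to 81.7% in the other 6. The Ccnd3 share was 12.1% to 14.9% in the B6SC tumors and 16.2% to 27.1% in the others. Both shares therefore separated the B6SC tumors from the 6 tumors in B6129SF1 hosts, with gaps of under 2 percentage points between the nearest tumors. No test was made of these shares or of the Mcm2, Ccne1 and Ccnb2 shares above, which separated other groups. How often shares of other genes separate the same tumors was not counted. Ccnd2 made up only 1.3% to 3.0% of the sum, so the 2 shares nearly mirror each other and are not separate results. The summed D cyclin level was 262 ± 41.9, 270.4 ± 15.2 and 328 ± 30.6 FPKM in the SFOG, SFSC and B6SC groups (SD, n = 3).

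Ccnd2 was the rarest D cyclin, at 5.72, 2.93 and 5.37 FPKM in the SFOG tumors, 6.70, 6.5 and 5.70 FPKM in the SFSC tumors, and 8.47, 6.35 and 10.9 FPKM in the B6SC tumors. The B6SC tumors did not overlap with the SFOG tumors but did with the SFSC tumors. Its log2 fold change of 0.77 against SFOG (95% interval 0.23 to 1.30) had an adjusted p of 0.0875 from limma. With a weight for each tumor it was 0.013, but 2466 of 10263 genes tested were then under 0.05, in place of 693. Without SFOG replicate 2, the lowest tumor for Ccnd1, Ccnd2 and Cdk6, the Ccnd2 difference was 0.52 and that of Ccnd1 0.26.

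Of the kinases that D cyclins activate, Cdk4 made up 94.1% to 97.9% of the sum with Cdk6. Cdk4 was at 292, 269 and 269 FPKM in the SFOG tumors, 194, 249 and 199.8 FPKM in the SFSC tumors, and 225, 274 and 251 FPKM in the B6SC tumors. The SFSC tumors lay below all SFOG tumors, with a log2 fold change of -0.37 (SE 0.12) and an adjusted p of 0.09996 from limma. Cdk6 was at 8.88 to 11.8 FPKM in SFSC and 13.1 to 14.2 FPKM in B6SC, and the SFOG range of 5.84 to 14.1 FPKM covered most of both. The G1 level as a whole was higher in all B6SC tumors than in all others, by 0.25 against SFOG and 0.20 against SFSC on the log2 scale. Ccnd1, Ccnd2 and Cdk6 had positive differences in both comparisons, Cdk4 in the second only and Ccnd3 in neither, and with the median of the 5 members in place of the mean it was -0.20 and -0.34.

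The comparisons between groups ask what changed with the adapted cells in the same host, with adapted cells and host together, and with the host of adapted cells. In SFSC against SFOG, 0 of 45 members had an adjusted p under 0.05, and 0 of 45 met that and an absolute log2 fold change above 1, by limma on log2(FPKM + 1) with Benjamini-Hochberg adjustment over all genes tested. Among all genes tested 8.28% passed the first threshold and 3.22% both. Unadjusted p-values under 0.05 were found for 3 of 45 members (Rrm2, Gins2 and Cdk4), beside 26.5% of all genes tested. Groups that did not overlap were found for 2 members, both lower in SFSC (Rrm2 and Cdk4), beside 15.9% of all genes tested that were lower without overlap and 13.6% that were higher.

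All 20 S phase members and all 20 G2/M members had a negative log2 fold change in that comparison, with medians of -0.35 and -0.32, and the median of all genes tested was -0.03. Without SFSC replicate 1, the medians were -0.06 for S phase, with 6 of 20 positive, and 0.07 for G2/M, with 12 of 20 positive. The direction of G2/M genes thus turned with 1 tumor. The 95% interval of a single gene reached a median of 0.59 to either side for S phase and 0.69 for G2/M, so changes of that size in a single gene could not be resolved. The G1 members had a median of 0.06, or -0.01 without that tumor.

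In B6SC against SFOG, 0 of 45 members had an adjusted p under 0.05 by limma, alone or with the fold threshold, beside 6.75% and 3.09% of all genes tested. Unadjusted p-values under 0.05 were found for 2 members, Ccnd1 and Ccnd2, beside 24.4% of all genes tested. These were also the 2 members whose groups did not overlap, both higher in B6SC, beside 14.9% of all genes tested that were higher without overlap, 17.9% that were lower and 32.8% in all. The S phase median was 0.08, with 11 of 20 positive, and the G2/M median -0.17, with 4 of 20 positive. Without SFOG replicate 1 the G2/M level differed by 0.02 in place of -0.17. This comparison and the one before share the SFOG tumors. Epithelial and thyroid markers (13 listed) summed to 651 to 1012 FPKM in SFOG, 290.2 to 583 FPKM in SFSC and 428 to 479 FPKM in B6SC. The abundant Krt8 and Krt18 dominated these sums. Of the 8 tested, 5 had a positive log2 fold change in B6SC against SFOG, with a median of 0.01. Only Krt8 and Krt18 were lower there without overlap. In SFSC against SFOG, 7 of 8 were negative, with a median of -0.39. The part of these markers in the differences between groups was not tested.

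In B6SC against SFSC, 0 of 45 members passed by limma, beside 0.0292% of all genes tested, and 2 members, Mcm7 and Ccnd1, had an unadjusted p under 0.05, beside 6.27% of all genes tested. Groups did not overlap for 6 members, all higher in B6SC (Mcm3, Mcm7, Pole, Ung, Ccnd1 and Cdk6), beside 6.32% of all genes tested that were higher without overlap and 5.42% that were lower. Mcm7 was at 34.7, 66.8 and 52.4 FPKM in the SFSC tumors and 72.2, 78.1 and 71.6 FPKM in the B6SC tumors (log2 fold change 0.57, SE 0.22, adjusted p = 0.777 from limma). Mcm3 was at 20.8, 44.95 and 42.7 FPKM and at 50.7, 54.1 and 50.3 FPKM (log2 fold change 0.58, SE 0.28, adjusted p = 0.815 from limma). The nearest tumors of the 2 groups were close together for both genes, and without SFSC replicate 1 the differences were 0.32 and 0.23.

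In this comparison 19 of 20 S phase members and 19 of 20 G2/M members had a positive log2 fold change, with medians of 0.42 and 0.14, the exceptions being Ccne2 and Ccnb2. Without SFSC replicate 1, the S phase median was 0.14, with 14 of 20 positive, and the G2/M median -0.21, with 0 of 20 positive. The sign thus stayed positive in 14 of 20 S phase members, and it turned in all G2/M members that had been positive. The S phase level then differed by only 0.086. B6SC replicate 1 (4.84) lay above SFSC replicate 2 (4.78), and B6SC replicates 2 and 3 (4.67 and 4.73) lay below it. All members of both phases were lowest in SFSC replicate 1, so their signs are not separate results and were not tested as a set. The G1 median was 0.33 with all tumors and 0.40 without that one.

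**Figure D4:**
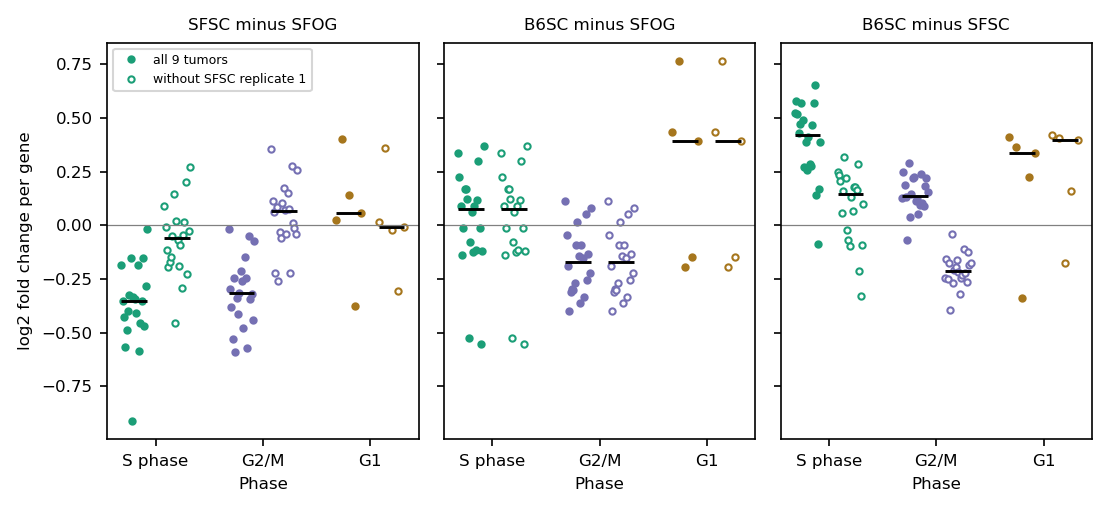
Log2 fold change of each member, by phase, in the 3 comparisons, with all 9 tumors (filled points) and without SFSC replicate 1 (open points), and the median as a bar. The G2/M medians move from -0.32 to 0.07 in SFSC against SFOG and from 0.14 to -0.21 in B6SC against SFSC, and those of B6SC against SFOG do not contain that tumor.

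Some members departed from the level of their phase. Their level was read as log2(FPKM + 1) of the gene minus its phase level in the same tumor, as a description with no test, for genes chosen after their values were seen. Separations on this scale were sought over the 45 members only. How often other genes separate the same tumors was not counted. Rrm2 stood 0.98, 0.97 and 0.76 above its phase in the SFOG tumors, 0.05, 0.50 and 0.53 above in the SFSC tumors and 0.67, 0.04 and 0.36 above in the B6SC tumors. All 6 adapted tumors were below the SFOG tumors. Ung stood the other way, at -2.24 to -2.06 in the SFOG tumors and -1.92 to -1.70 in the adapted ones. Among G2/M members, Mki67 was at 0.01 to 0.45 in the SFOG tumors and 0.46 to 0.62 in the adapted ones, and Plk1 at -0.61 to -0.32 and -0.26 to -0.17. Kif11, the motor that pushes spindle poles apart, was at -0.54 to -0.46 in the SFOG tumors and lower, at -0.78 to -0.58, in the adapted ones. The gaps between the nearest tumors were small for Mki67, Kif11 and Plk1.

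Other members departed with the host. Ccne2 was at -2.58 to -2.23 relative to its phase in the B6SC tumors and -2.12 to -1.79 in the other 6, and Pole at -1.10 to -0.95 and -1.55 to -1.18. Uhrf1 was at 0.95 to 1.00 in the B6SC tumors and 0.58 to 0.93 in the others, and Fen1 at -0.35 to -0.08 and -0.07 to 0.13. Thus 2 S phase genes, Pole and Uhrf1, stood higher and 2, Ccne2 and Fen1, lower in C57BL/6 hosts than in the other tumors, with a gap of about 0.01 between the nearest tumors for Fen1. These numbers have no share over all genes beside them, so they cannot be set against a background. Kif23 of G2/M was lower there and Ccnd1 of G1 higher. With a pseudocount of 0.1 in place of 1, all of these separations were also found, as were higher levels of Mcm2 and Ccnd2 in the adapted tumors.

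**Figure D5:**
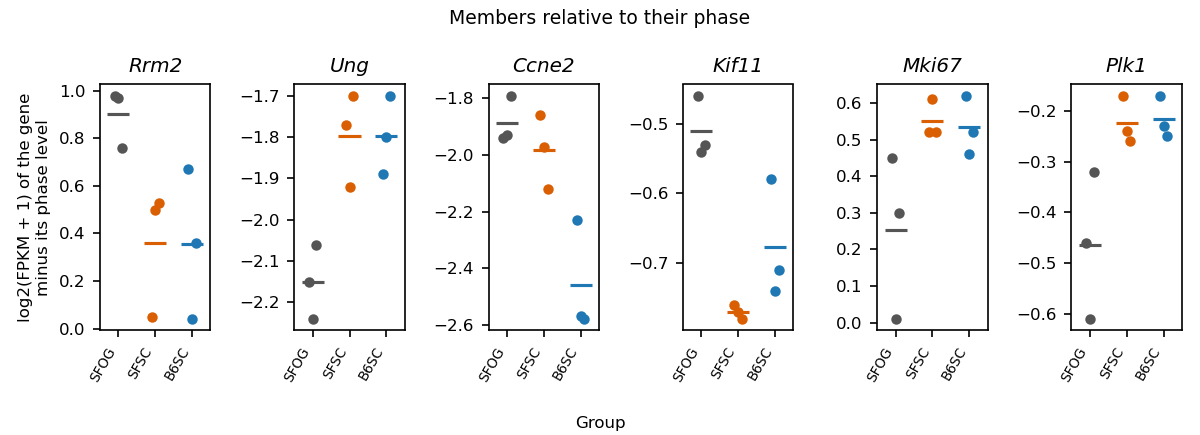
Log2(FPKM + 1) of 6 members minus the level of their phase in the same tumor, by group, with each tumor as a point and the group mean as a line (n = 3), on a vertical scale of its own for each gene. Rrm2 and Kif11 are lower, and Ung, Mki67 and Plk1 higher, in all 6 adapted tumors than in the SFOG tumors, and Ccne2 is lower in the B6SC tumors than in the 6 others.

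Other genes of the cell cycle were read from 6 lists of 88 genes, of which 84 were tested. In SFSC against SFOG, 3 of 84 had an adjusted p under 0.05 and fell, and 0 rose, beside 3.92% and 4.37% of all genes tested. In B6SC against SFOG, 1 fell and 0 rose, beside 2.77% and 3.99%. In B6SC against SFSC none of the 84 passed by limma, beside 0.0292% of all genes tested. There 1 of 84 had an unadjusted p under 0.05, beside 6.27% of all genes tested. Anln, the contractile ring scaffold of cytokinesis, was at 69.8, 49.8 and 47.3 FPKM in the SFOG tumors, 14.4, 32.0 and 26.5 FPKM in the SFSC tumors and 35.2, 28.1 and 30.6 FPKM in the B6SC tumors. All adapted tumors were below all SFOG tumors. In SFSC Anln fell by 1.21 on the log2 scale (SE 0.27, adjusted p = 0.0299 from limma), and leaving out each tumor in turn gave adjusted p-values of 0.029 to 0.0989, the highest without SFOG replicate 1. In B6SC its log2 fold change was -0.80 (adjusted p = 0.113 from limma, and 0.0288 without SFSC replicate 1).

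Orc6, a subunit of the origin recognition complex that marks sites of replication, was at 34.6, 34.6 and 31.8 FPKM in the SFOG tumors, 17.5, 24.0 and 23.3 FPKM in the SFSC tumors, and 25.04, 25.9 and 26.3 FPKM in the B6SC tumors. The SFOG tumors were above all others. Orc6 fell by 0.63 in SFSC (SE 0.12, adjusted p = 0.0193 from limma), with adjusted p-values of 0.0217 to 0.065 when 1 tumor was left out, the highest without SFOG replicate 1, and its log2 fold change in B6SC was -0.37 (adjusted p = 0.1005 from limma, and 0.0287 without SFSC replicate 1). Cdk7, the kinase that activates other cyclin-dependent kinases, was at 8.74 to 9.83 FPKM in SFOG, 6.32 to 7.11 FPKM in SFSC and 6.03 to 7.01 FPKM in B6SC. It fell by 0.41 in SFSC and by 0.42 in B6SC (adjusted p = 0.0421 and 0.0428 from limma), and leaving out 1 tumor gave up to 0.107 (without SFOG replicate 3) and 0.132 (without B6SC replicate 1).

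The lists of other replication and other mitosis genes shared the pattern of the members. In SFSC replicate 1, 21 of 22 tested genes of the first and 25 of 25 of the second had their lowest value of the 9 tumors. So did 8 of 12 checkpoint kinases and activators of cyclin-dependent kinases, 5 of 6 genes of the DREAM and B-Myb complexes and 6 of 13 Rb and E2F genes. Of the 6 tested inhibitors of cyclin-dependent kinases 1 did, Cdkn2d, named after its values were seen. Of all genes tested, 14.1% had their lowest value in SFSC replicate 1. Cdkn1a, which encodes p21, was at 32.9 to 62.4 FPKM and Cdkn1b, which encodes p27, at 34.5 to 54.6 FPKM, and the 3 groups overlapped for both. Cdkn2a was under the filter at 0.18 to 0.88 FPKM, and an exact two-sided permutation test gave p = 0.3 for SFSC and p = 0.1 for B6SC against SFOG (n = 3), where 0.1 is the smallest p that 3 against 3 tumors can give. Rb1 was at 11.8 to 12.4 FPKM in SFOG, 8.64 to 12.3 FPKM in SFSC and 8.11 to 9.95 FPKM in B6SC. E2f1, an activator of S phase genes, was lowest in SFSC replicate 1 at 11.6 FPKM, against 15.8 to 24.99 FPKM in the others, and so was Mybl2, which encodes B-Myb, at 3.1 FPKM against 5.72 to 13.9 FPKM. Foxm1 was not analysed here.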

How the data were processed

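RNA of 9 tumors was sequenced as paired-end reads, 3 tumors each of the SFOG, SFSC and B6SC groups, which the study calls original/129, adapted/129 and adapted/B6. According to the methods, the authors aligned them to mm10 with HISAT2, and the deposited values are FPKM made by Cuffnorm; the gene annotation is not given in the sources used here. Counts were not used, so absolute depth is unknown, and 3 tumors per group limit the precision. The limma p-values set a difference between groups against the spread between tumors. For each gene that spread was pooled over the 3 groups, so SFSC tumors also entered the error of B6SC against SFOG.

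The 10263 of 17369 genes that reached 1 FPKM in 3 or more tumors were tested as log2(FPKM + 1), a scale that understates changes of low genes, with limma 3.58.1 in R 4.3.3 (lmFit, eBayes with trend) in a single model of the groups, with Benjamini-Hochberg adjustment. Tested on simulated tumors for SFSC against SFOG, 187 of 200 genes changed by 2 on the log2 scale were recovered. Among the 10263 genes, 1 other gene was called. The log2 fold changes of the 45 members in that comparison ran from -0.91 to 0.40, and the recovery of changes of that size was not tested.

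Members and lists were chosen with earlier results of these data known. All members may be named. Of the pathway lists, genes with an adjusted p under 0.05 in any comparison were named, with Cdkn1a, Cdkn1b, Cdkn2a, Rb1, E2f1, Foxm1 and Mybl2, and of the marker lists only those that check the tissue or stand beside a result. Alternatives were TPM scaling, median-ratio size factors, other filters, a pseudocount of 0.1, a replicate block, fits on the compared groups alone, a weight for each tumor, no trend, a median over members and each tumor left out in turn. Coordinates and sequences were not used here.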

Additional observations from a re-analysis of the deposited data

How the results depend on the processing

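The number of members with an adjusted p under 0.05 was 0 under every alternative run, each tumor left out in turn included, with 1 exception. In B6SC against SFOG with a weight for each tumor it was 2 (Ccne2 and Ccnd2). With that weight 2466 of 10263 genes tested passed in that comparison, in place of 693. With the replicate number as a replicate block, 0 members passed in each comparison, and over all genes tested 242, 245 and 0 were called in place of 330, 317 and 3. Correlations between the deviations of same-numbered tumors ran from -0.388 to 0.614, and not every tumor correlated best with its own number. With 3 tumors per group this cannot tell whether the numbers pair the tumors. Over all genes, the counts called ran from 150 to 431 for SFSC against SFOG (219 with a mean of at least 5 FPKM), from 154 to 476 for B6SC against SFOG (199 with a mean of at least 5 FPKM) and from 0 to 6 for B6SC against SFSC. With the median over members, the G1 level of B6SC differed by -0.197 from SFOG and -0.336 from SFSC, in place of 0.249 and 0.200, as the middle member of 5 is then Ccnd3. Leaving out each tumor in turn, the S phase level differed by -0.581 to -0.067 between SFSC and SFOG, -0.145 to 0.173 between B6SC and SFOG and 0.086 to 0.600 between B6SC and SFSC. The G2/M level differed by -0.562 to 0.042, -0.336 to 0.022 and -0.209 to 0.395, the G1 level by -0.093 to 0.133, 0.107 to 0.332 and 0.146 to 0.241, and G2/M minus S by -0.121 to 0.199, -0.364 to -0.044 and -0.295 to -0.205. Of Anln, Orc6 and Cdk7, only Anln in SFSC against SFOG had met the fold threshold as well. The adjusted p of Cdk7 exceeded 0.05 in most alternatives, among them TPM scaling (adjusted p = 0.09 in SFSC and 0.105 in B6SC from limma). That of Anln in SFSC exceeded 0.05 with no filter (0.0523), with the compared groups alone (0.0747) and with the replicate block (0.0775). The log2 fold change of Anln in SFSC was -0.89 without SFSC replicate 1 and -0.96 with a weight for each tumor, short of the fold threshold. The adjusted p of Orc6 in SFSC exceeded 0.05 with the compared groups alone (0.0593). In B6SC against SFOG, the adjusted p of Anln and Orc6 fell under 0.05 with the compared groups alone (adjusted p = 0.0332 and 0.0413 from limma). It also did so with a weight for each tumor (0.0267 and 0.0252) and without SFSC replicate 1 (0.0288 and 0.0287). The causes were not tested.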
